A study of Mus musculus with 9 samples.

Results

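Respiratory complex I, the NADH:ubiquinone oxidoreductase of the inner mitochondrial membrane, was described through the protein-coding genes of the counts table whose symbols begin with Nduf. There were 45 such genes among 28111 genes in all, of which 17771 were protein-coding. They comprised 7 core subunits, 29 accessory subunits, 7 assembly factors of the Ndufaf series, and Ndufa4 with its paralog Ndufa4l2. Ndufa4 is treated in textbooks as a subunit of complex IV and was kept apart from the complex I classes. The cells were induced regulatory T cells (iTreg), CD4 T cells driven in culture to express Foxp3. All came from C57BL/6J mice, with 4 libraries of cells carrying a Glut1 transgene (Glut1Tg) and 5 of wild-type cells (WT). Glut1 is the glucose transporter encoded by Slc2a1, and neither the labels nor the design text names the promoter or cell types that drive the transgene. The labels also place each library in a mouse group. Mouse group 2 held Glut1Tg replicate 1 and WT replicates 2, 4 and 5, and mouse group 1 held Glut1Tg replicates 2, 3 and 4 and WT replicates 1 and 3. What sets the mouse groups apart, the ages and sexes of the mice and the culture conditions are not given in the labels. Whether each library had its own animal or culture is not stated. The p-values therefore cover the spread among these 9 libraries only, and part of it may be technical.

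Complex I takes electrons from NADH, passes them along a flavin and a chain of iron-sulfur clusters to ubiquinone, and pumps protons across the membrane. Its core subunits carry the catalysis and are shared with the bacterial enzyme. Those of the peripheral arm are encoded in the nucleus, whereas the core subunits of the membrane arm are encoded in mitochondrial DNA as the mt-Nd genes. Accessory subunits surround the core, and assembly factors help to build the complex without being part of it. In T cells the enzyme sits where NADH from glucose and fatty acid oxidation enters respiration, and regulatory T cells are known for their use of oxidative metabolism.

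Slc2a1 was measured first as a check of the genotype labels. It had 260.2, 496, 279 and 457 CPM (counts scaled to the library total) in the 4 Glut1Tg libraries, in replicate order as throughout, against 52.0, 36.6, 58.7, 33.3 and 29.7 CPM in the 5 WT libraries. The genotypes did not overlap, and the fitted log2 fold change was 2.92 ± 0.19 (SE; adjusted p = 0.000903, edgeR quasi-likelihood test). Foxp3 had 822, 733, 621 and 814 CPM in Glut1Tg libraries and 814, 1002, 882, 1025 and 1164 CPM in WT libraries, and Cd4 and Cd3e were at 288 CPM or more in every library. The 7 Treg and T cell markers summed to 5744, 3319, 2637 and 3410 CPM in Glut1Tg libraries, against 3468, 5514, 3508, 3506 and 3931 CPM in WT libraries. Glut1Tg replicate 1 was highest and Glut1Tg replicate 3 lowest in that sum, and the genotype log2 fold change was positive for 3 of the 7 and negative for 4. Total counts ran from 20881035 to 31196428 per library, and the Nduf genes took between 0.241% and 0.361% of them. Glut1Tg replicate 3 had the highest share. That library also had the highest summed level of 8 myeloid markers, 327 CPM against 5.90 to 37.2 CPM in the other libraries, and of 8 mast cell and basophil markers, 2473 CPM against 92.2 to 797 CPM. Its summed level of 5 B cell markers was 9.67 CPM, against 3.71 to 8.12 CPM in the others, and that of 5 CD8 and NK cell markers was 38.9 CPM, more than in any other library, the lowest of which had 12.8 CPM. None of these markers was at 0 in all libraries. Glut1Tg replicate 1 and WT replicate 2 stood apart in another way. Their 8 proliferation markers summed to 5273 and 5095 CPM, against 985 to 2211 CPM in the other 7 libraries. In such bulk samples a smaller number of cells of one type and less RNA per cell cannot be told apart.

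The start regions of 39 of the 45 genes were in the RefSeq promoter table for build GRCm38.p6, which holds the 250 bases before and 50 bases after each annotated start. Both strands were searched for 5 motifs bound by factors known for respiratory genes. The NRF1 motif (GCGCA, any base, then GCGC) was present in windows of 9 of the 39 genes (23.1%), against 5.19% of all 27025 genes in the table. The YY1 motif AAGATGGC was in 7 (17.9%), against 3.19%. The GABPA motif CCGGAAG was in 5 (12.8%, against 9.93%), the ESRRA motif AAGGTCA in 3 (7.69%, against 5.38%) and the MYC motif CACGTG in 2 (5.13%, against 8.09%). None of these motifs contains another, and the MYC motif reads the same on both strands. All 7 YY1 matches began between 22 and 38 bases after the start. NRF1 matches fell in 7 of 27 accessory, 2 of 6 assembly factor and 0 of 5 core genes with a window, the remaining gene being Ndufa4. A match is a stretch of letters, not a measured binding site. Shown here are the 150 bases before the start of 5 genes whose levels are described in the results, in lower case with the NRF1, GABPA and ESRRA matches in capitals and with GRCm38.p6 coordinates. They were chosen as subunits and assembly factors with a match before the start whose values are given. Ndufa8, Ndufb4 and Ndufaf4 carry NRF1 matches, Ndufb7 and Ndufaf1 a GABPA match, and Ndufb4 also an ESRRA match.
Ndufb7 (chr8:83566608-83566757, plus strand): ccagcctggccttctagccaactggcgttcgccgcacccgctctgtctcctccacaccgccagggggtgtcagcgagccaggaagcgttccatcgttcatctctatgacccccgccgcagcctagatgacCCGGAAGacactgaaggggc
Ndufaf1 (chr2:119662835-119662984, minus strand): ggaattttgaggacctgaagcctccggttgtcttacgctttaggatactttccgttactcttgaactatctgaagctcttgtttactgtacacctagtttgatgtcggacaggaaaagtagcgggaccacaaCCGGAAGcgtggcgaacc
Ndufa8 (chr2:36049339-36049488, minus strand): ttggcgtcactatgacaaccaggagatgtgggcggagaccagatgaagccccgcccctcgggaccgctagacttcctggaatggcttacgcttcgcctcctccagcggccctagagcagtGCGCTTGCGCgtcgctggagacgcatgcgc
Ndufaf4 (chr4:24897933-24898082, plus strand): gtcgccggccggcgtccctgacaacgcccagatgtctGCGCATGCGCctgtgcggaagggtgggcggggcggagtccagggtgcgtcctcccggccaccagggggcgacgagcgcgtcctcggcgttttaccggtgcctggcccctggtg
Ndufb4 (chr16:37654369-37654518, minus strand): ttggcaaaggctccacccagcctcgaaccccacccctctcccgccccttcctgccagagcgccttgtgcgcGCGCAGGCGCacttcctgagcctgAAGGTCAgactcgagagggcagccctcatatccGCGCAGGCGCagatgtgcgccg
In these windows the GABPA match of Ndufb7 begins at position -20, counted from the start, and that of Ndufaf1 at position -18. Ndufb4 has NRF1 matches beginning at positions -79 and -22, with the ESRRA match between them.

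Levels of the subunits in WT cells were compared per kilobase of principal transcript, since longer transcripts collect more reads. The highest was Ndufa6, a small accessory subunit of the peripheral arm that docks the mitochondrial acyl carrier protein, at 196 ± 51.3 CPM per kb (SD, n = 5 WT libraries, as for all levels per kb here). Ndufa4 was next at 192 ± 45.9, followed by Ndufb11 at 138 ± 15.2, Ndufa7 at 135 ± 15.4 and Ndufb7 at 133 ± 14.2. Ndufa6 and Ndufa4 did not differ beyond their spread, and neither did Ndufb11, Ndufa7 and Ndufb7 among themselves. The lowest subunit was Ndufab1, the acyl carrier protein itself, at 21.8 ± 4.75. The order at the top depended on the length used. Per kilobase of all annotated exons, a choice made after the data were seen, Ndufb11 was highest at 138 CPM per kb. Ndufa6 then had 64.4, Ndufa4 62.8, Ndufa7 39.1 and Ndufb7 18.3, and Ndufab1 stayed the lowest subunit at 4.49.

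Among core subunits, Ndufs1, which carries iron-sulfur clusters and accepts electrons from the flavin subunits, was lowest at 33.7 ± 4.09 CPM per kb. Ndufs3 and Ndufs7, both at the base of the peripheral arm, had 67.8 ± 5.59 and 67.7 ± 11.8 CPM per kb. Those values did not differ beyond their spread. Ndufs8, an iron-sulfur subunit, had 55.5 ± 4.48, Ndufv1, which binds NADH and the flavin, had 51.6 ± 7.64, and its partner Ndufv2 had 49.2 ± 3.90. Neighbours among these last 3 also lay closer than their spread.

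All 7 assembly factors lay below every subunit on the scale of CPM per kb. Ndufaf1, which acts with Ecsit and Acad9 in building the membrane arm, had 10.8 ± 2.34. Ndufaf7, a methyltransferase, had 10.5 ± 0.994, and Ndufaf3 had 9.98 ± 3.40. Ndufaf2, a relative of the subunit Ndufa12 that acts late in assembly, had 8.35 ± 3.81, and Ndufaf5, which hydroxylates Ndufs7, had 8.10 ± 1.70. The lowest were Ndufaf4, the partner of Ndufaf3, at 4.09 ± 0.626, and Ndufaf6 at 3.36 ± 0.804. The median was 55.5 CPM per kb for core, 60.7 for accessory and 8.35 for assembly genes. With the length of all annotated exons in place of the principal transcript, a choice made after the data were seen, the medians were 32.5, 37.7 and 5.24, and 2 subunits then lay below the highest assembly factor. Ndufaf2 was the most variable of the tested genes, with a coefficient of variation of 45.7% across WT libraries and a 3.77-fold range over all 9. Ndufa4l2 had 13 counts over all libraries together and was not tested.

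**Figure D1:**
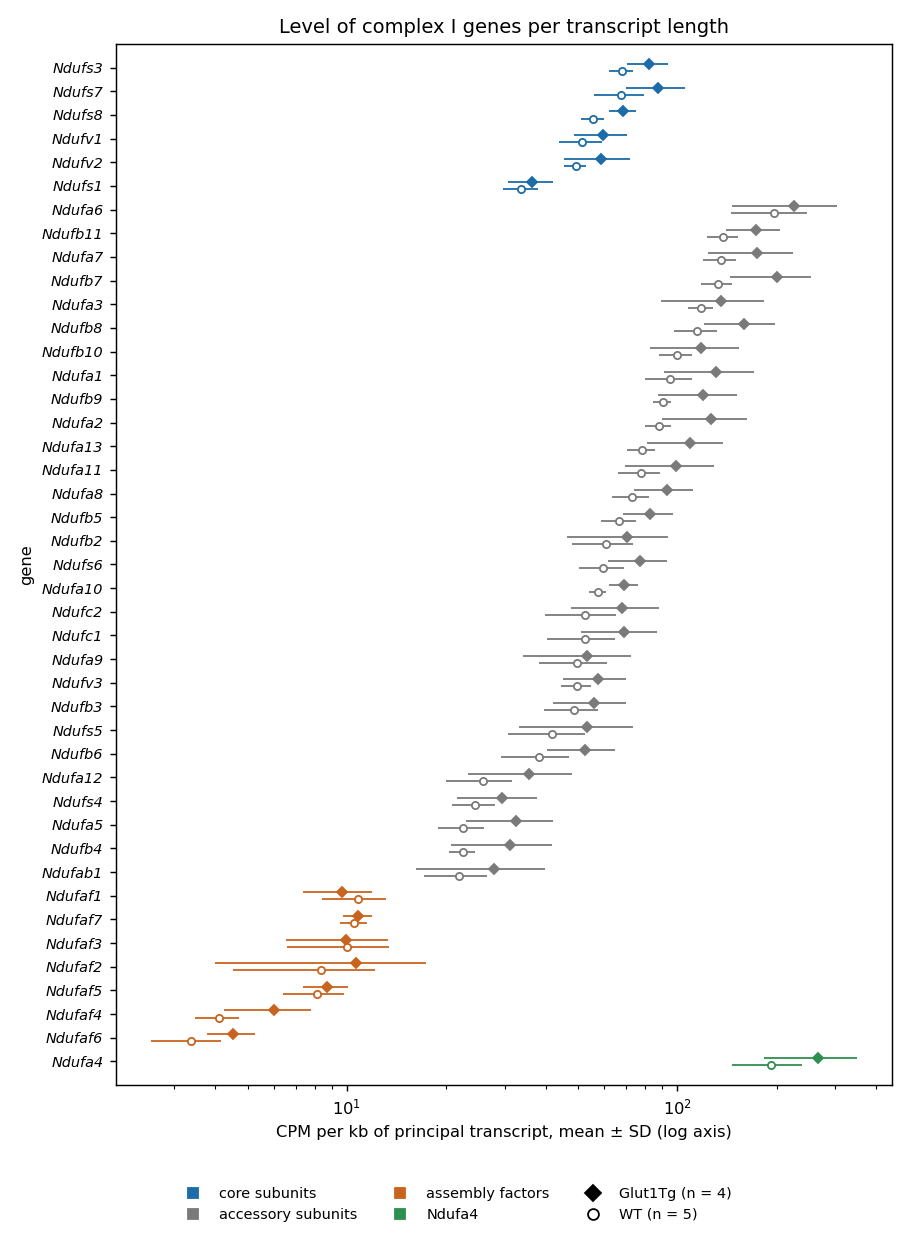
Level of complex I genes in CPM per kb of principal transcript on a log axis, as mean with SD bars, for Glut1Tg (filled diamonds, n = 4) and WT libraries (open circles, n = 5), sorted within class by the WT mean. The assembly factors lie to the left of all subunits, and Ndufa6 and Ndufa4 lie farthest to the right in WT libraries.

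Glut1Tg cells were then compared with WT cells. No complex I gene passed the test across all genes, in which Slc2a1 alone was called (0.00675% of the 14817 genes tested), and the smallest adjusted p among the Nduf genes was 0.681 (edgeR quasi-likelihood test with mouse group as a term). DESeq2 and limma-voom also called 0 of them. At an unadjusted p under 0.05, 15 of the 44 tested genes (34.1%) were higher in Glut1Tg, against a background of 4.50% of all genes, and 0 were lower, against 1.50%. The fitted log2 fold change was positive for 43 of 44 genes (97.7%), against 52.4% of all genes, with Ndufa6 as the exception. Median log2 fold changes were 0.27 for the 7 core, 0.42 for the 29 accessory and 0.34 for the 7 assembly genes, against 0.02 for all genes. All the genes were measured in the same 9 libraries, so these counts are not 44 separate observations.

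The count at an unadjusted p rested on single libraries. Of the Glut1Tg libraries, leaving out replicate 1 gave 2 genes and leaving out replicate 3 gave 5. Of the WT libraries, leaving out replicate 1 gave 3 and leaving out replicate 3 gave 2. Without WT replicate 4 the count was 9, and without WT replicate 5 it was 7. It was 21 when Glut1Tg replicate 2 or 4 was left out. The share of all genes at that p in each single fit is not given here, so these swings are not a result about complex I alone. The number of positive fold changes stayed between 40 and 44 in all 9 of these fits. Within mouse group 1 alone (3 Glut1Tg, 2 WT) 43 genes were positive, with a median of 0.39 for accessory genes, and 1 had an unadjusted p under 0.05. Within mouse group 2 (1 Glut1Tg, 3 WT), where the lone Glut1Tg library is assumed to vary like the others, 39 were positive, with an accessory median of 0.41. The share of all genes with a positive fold change in each of these fits is not given here. The counts of positive genes in them are therefore not a result about complex I alone.

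The 4 Glut1Tg libraries differed among themselves. Relative to the WT mean, the median log2 ratio over the 44 genes was 0.42 in Glut1Tg replicate 1, 0.10 in replicate 2, 0.66 in replicate 3 and 0.07 in replicate 4. It was -0.08, 0.21, -0.06, 0.07 and -0.12 in WT replicates 1 to 5. Replicates 2 and 4 of Glut1Tg were thus within the range of the WT libraries by this median. In Glut1Tg replicate 3, 36 of 44 genes were above every WT library, and in replicate 1, 30 were, while 16 were in replicate 2 and 10 in replicate 4. The share of all genes above every WT library is not given here, so these counts are not a result about complex I alone. The highest library of all 9 was Glut1Tg replicate 3 for 29 of the 44 genes and Glut1Tg replicate 1 for 12. Over all 14817 genes tested it was Glut1Tg replicate 3 for 3149 and Glut1Tg replicate 1 for 3348. The share for replicate 1 was near that of all genes and is not a result about complex I. Glut1Tg replicate 3 is the library with high myeloid and mast cell marker sums, and Glut1Tg replicate 1 shares its high proliferation marker sum with WT replicate 2. The genotype log2 fold change was positive for all 8 proliferation markers (median 0.43), for 6 of 8 mast cell and basophil markers (median 0.51) and for 6 of 7 tested myeloid markers (median 0.31), with none past the test (edgeR). Their part in the result was not tested. Without Glut1Tg replicate 3 the medians were 0.15 for core, 0.27 for accessory and 0.17 for assembly genes.

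**Figure D2:**
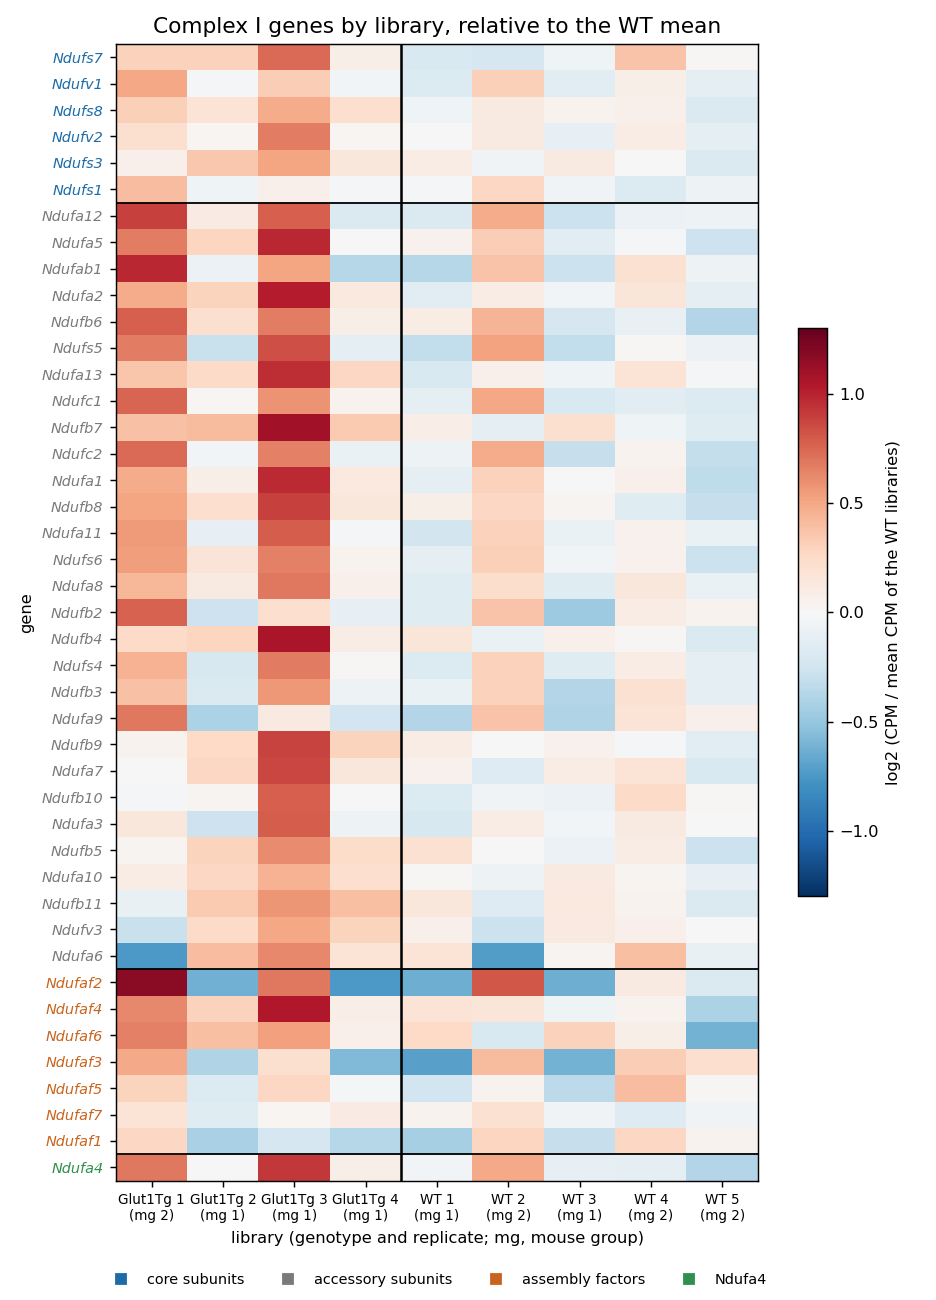
Heat map of the log2 ratio of CPM to the mean of the WT libraries for tested complex I genes (rows, by class and fitted fold change) in each library (columns, Glut1Tg left of the line and WT right of it, with the mouse group below). The columns of Glut1Tg replicates 3 and 1 are the reddest, while Ndufa6 is blue in Glut1Tg replicate 1 and WT replicate 2.

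Among core subunits, Ndufs8 was the gene whose genotypes did not overlap. It had 67.5, 61.3, 76.0 and 63.2 CPM in Glut1Tg libraries, against 52.4, 58.7, 56.0, 56.6 and 47.6 CPM in WT libraries. Every Glut1Tg library was above every WT library, by a narrow margin between Glut1Tg replicate 2 and WT replicate 2. The fitted log2 fold change was 0.31 ± 0.13 (1.24-fold, 95% interval 1.02 to 1.51), with an unadjusted p of 0.0376 and an adjusted p of 0.681 in edgeR. It stayed between 0.24 and 0.33 over all 18 alternatives. Ndufv1 had 121, 84.5, 107 and 83.6 CPM in Glut1Tg and 75.7, 106, 77.5, 90.1 and 79.2 CPM in WT libraries, with overlap and a log2 fold change of 0.31 ± 0.14 (adjusted p = 0.681, edgeR). Log2 fold changes were 0.41 for Ndufs7, 0.27 for Ndufv2, 0.20 for Ndufs3 and 0.16 for Ndufs1. The sign turned negative in 2 of 18 alternatives for Ndufs1. Exons of Ndufs1 overlap Eef1b2 on the other strand only within positions 63176825 to 63176833 of chromosome 1, of 8086 exonic bases. Eef1b2 had 222962 counts over all libraries against 20384 for Ndufs1. The labels do not give the strand setting of the counting.

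Accessory subunits held 12 of the 15 genes at an unadjusted p under 0.05. Ndufb7, on the intermembrane-space side of the membrane arm, had 108, 109.6, 176 and 105 CPM in Glut1Tg libraries and 87.6, 76.4, 95.4, 79.6 and 73.8 CPM in WT libraries. Ndufa13, a membrane-arm subunit also known as GRIM-19, had 125, 116, 189 and 117 CPM in Glut1Tg and 84.7, 102, 93.7, 111 and 96.2 CPM in WT libraries. For both genes the genotypes did not overlap, and Glut1Tg replicate 3 stood well above the other Glut1Tg libraries. With Ndufs8 they made 3 of 44 genes (6.82%) with every Glut1Tg library above every WT library, against 1.01% of all genes, and 0 had the opposite order, against 0.580%. The log2 fold change was 0.50 ± 0.17 for Ndufb7 (1.41-fold, 95% interval 1.08 to 1.85) and 0.52 ± 0.19 for Ndufa13 (1.43-fold, 95% interval 1.07 to 1.91), both with an adjusted p of 0.681 in edgeR. Over the 18 alternatives Ndufb7 ran from 0.33 to 0.59 and Ndufa13 from 0.26, within mouse group 2, to 0.65. Without Glut1Tg replicate 3 both were at 0.33, smaller by over 1.5 times. An exact two-sided permutation test of each gene, without a mouse group term, gave p = 0.00794 for each of the 3 genes. That is the smallest it can give, and the value was 0.817 after adjustment over all genes. Full separation of the genotypes already puts a gene at an extreme of all splits, so this p is no separate check.

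Ndufa12, whose place in the peripheral arm is held by Ndufaf2 during assembly, had the largest fitted value among accessory genes. It had 53.2, 30.7, 49.1 and 25.1 CPM in Glut1Tg libraries against 25.2, 39.9, 23.6, 27.1 and 27.3 CPM in WT libraries, with a log2 fold change of 0.61 ± 0.22 (adjusted p = 0.681, edgeR). Glut1Tg replicates 1 and 3 and WT replicate 2 were high and the remaining libraries lay together. Ndufa2 had 70.3, 61.6, 102 and 55.0 CPM in Glut1Tg and 45.8, 53.9, 49.2, 56.2 and 46.2 CPM in WT libraries (log2 fold change 0.55 ± 0.20), overlapping at Glut1Tg replicate 4. Ndufa8, on the intermembrane-space side of the enzyme, had 84.6, 68.2, 101 and 65.7 CPM in Glut1Tg and 56.0, 73.3, 56.1, 69.2 and 59.0 CPM in WT libraries (log2 fold change 0.42 ± 0.16). Ndufab1, which also serves mitochondrial fatty acid synthesis, had 60.8, 29.3, 44.2 and 23.9 CPM in Glut1Tg and 24.0, 40.0, 25.5, 35.4 and 29.6 CPM in WT libraries (log2 fold change 0.55 ± 0.20). Its Glut1Tg replicate 2 was within the WT range and replicate 4 marginally below it. The accessory genes with the highest counts, Ndufb11 and Ndufa10, had log2 fold changes of 0.19 ± 0.12 and 0.21 ± 0.11. The 18 accessory genes not described one by one averaged between 21.7 CPM (Ndufc1) and 108 CPM (Ndufb8) in Glut1Tg libraries, against 16.6 CPM (Ndufc1) to 78.4 CPM (Ndufv3) in WT libraries. Their log2 fold changes ran from 0.08 (Ndufv3) to 0.57 (Ndufa5), and 5 of them had an unadjusted p under 0.05 (Ndufa5, Ndufb6, Ndufb8, Ndufc1 and Ndufs6). By arm, the median log2 fold change was 0.31 for 16 peripheral-arm genes and 0.42 for 19 membrane-arm genes, core and accessory together and without Ndufab1, which sits in both arms.

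Ndufa6 was the exception. It had 69.3, 153, 179 and 131 CPM in Glut1Tg libraries and 131, 70.2, 118, 152 and 108 CPM in WT libraries. The lowest libraries were Glut1Tg replicate 1 and WT replicate 2, the pair with high proliferation marker sums, and the other libraries began at 108 CPM. Its mean was higher in Glut1Tg (133 ± 46.7 CPM) than in WT (116 ± 30.3 CPM; SD, n = 4 and 5), but the fit, which compares within mouse groups, gave a log2 fold change of -0.05 ± 0.29 (0.968-fold, 95% interval 0.620 to 1.51). The sign turned positive in 5 of 18 alternatives, and without both of those libraries the value was 0.28. Over the alternatives it ran from -0.70 within mouse group 2, which has 1 Glut1Tg library, to 0.30 within mouse group 1.

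Of the assembly factors, Ndufaf4 had 22.9, 18.3, 30.4 and 15.8 CPM in Glut1Tg and 16.8, 16.6, 14.3, 15.4 and 11.2 CPM in WT libraries, overlapping at Glut1Tg replicate 4, with a log2 fold change of 0.55 ± 0.23 (unadjusted p = 0.0412, adjusted p = 0.681, edgeR). Ndufaf2 had the largest fitted value, 0.68 ± 0.36, with 12.7, 3.68, 9.11 and 3.38 CPM in Glut1Tg and 3.65, 9.90, 3.65, 6.12 and 4.98 CPM in WT libraries. Glut1Tg replicates 2 and 4 were as low as WT replicates 1 and 3, all 4 of them in mouse group 1. The remaining factors had 0.39 for Ndufaf6, 0.34 for Ndufaf3, 0.25 for Ndufaf5, 0.07 for Ndufaf7 and 0.04 for Ndufaf1, each with an adjusted p of at least 0.681 in edgeR. The sign turned negative in 5 of 18 alternatives for Ndufaf1, in 3 for Ndufaf7 and in 1 for Ndufaf3. Without the mouse group term the assembly median was 0.10. Ndufa4 had 139.9, 86.2, 164 and 91.7 CPM in Glut1Tg and 84.7, 122, 80.3, 79.9 and 66.8 CPM in WT libraries, with a log2 fold change of 0.54 ± 0.25 (adjusted p = 0.681, edgeR).

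**Figure D3:**
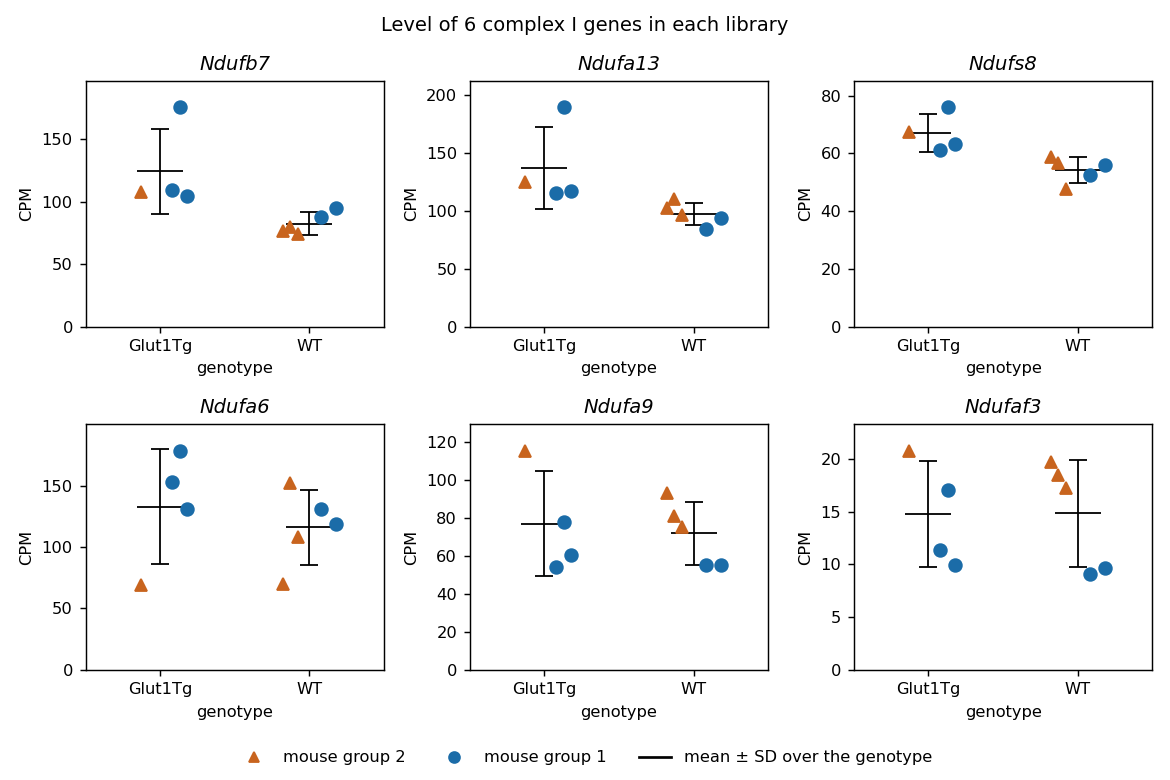
CPM in each library for 6 genes, with Glut1Tg left of WT in each panel, triangles for mouse group 2 and circles for mouse group 1, and bars for the mean and SD of the genotype. Ndufb7, Ndufa13 and Ndufs8 separate the genotypes, Ndufa6 is low in Glut1Tg replicate 1 and WT replicate 2, Ndufaf3 separates the mouse groups, and Ndufa9 does so apart from Glut1Tg replicate 3.

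Over all genes, more were called for mouse group than for genotype. The median log2 fold change over the 44 complex I genes was 0.09 for mouse group and 0.38 for genotype. Mouse group values ran both ways, with 30 positive and 14 negative, from -0.53 to 1.06, so their median does not give their size. Genotype values ran from -0.05 to 0.68. Between mouse group 2 and mouse group 1, 5 of 44 complex I genes (11.4%) were higher in mouse group 2 at an adjusted p under 0.05, against 13.1% of all genes, and 0 were lower, against 11.0% (edgeR). In all, 3576 genes (24.1%) were called. The share of higher genes was near the background and is not a result about complex I. The 5 were the subunits Ndufa9, Ndufab1 and Ndufb2 and the assembly factors Ndufaf1 and Ndufaf3. Median log2 fold changes were 0.03 for core, 0.09 for accessory and 0.38 for assembly genes, against -0.01 for all genes.

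Ndufaf3 had 20.8, 19.7, 18.5 and 17.3 CPM in the mouse group 2 libraries Glut1Tg 1 and WT 2, 4 and 5. In mouse group 1 it had 11.3, 17.1, 9.98, 9.10 and 9.66 CPM in Glut1Tg 2, 3 and 4 and WT 1 and 3. The mouse groups did not overlap, and Glut1Tg replicate 3 was the highest of mouse group 1. The log2 fold change was 0.87 ± 0.20 (1.83-fold, 95% interval 1.34 to 2.49; adjusted p = 0.0151, edgeR), and over WT libraries alone it was 0.98 (adjusted p = 0.0470, edgeR). Its exons overlap Impdh2 on the other strand only within positions 108565537 to 108565584 of chromosome 9, of 1815 exonic bases. Impdh2 had 34878 counts over all libraries against 3367 for Ndufaf3. The mouse group log2 fold change of Impdh2 was 0.94 (adjusted p = 0.0251, edgeR), and mixing of reads between the pair was not tested.

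Ndufaf1, in the same order of libraries, had 18.8, 18.9, 18.8 and 16.1 CPM in mouse group 2 and 11.7, 13.4, 12.1, 11.6 and 12.7 CPM in mouse group 1, again without overlap. Its log2 fold change was 0.58 ± 0.14 (1.49-fold; adjusted p = 0.0191, edgeR). Ndufa9, an accessory subunit at the foot of the peripheral arm, had 115, 92.9, 81.2 and 75.1 CPM in mouse group 2 and 54.0, 78.0, 60.6, 55.2 and 55.0 CPM in mouse group 1. Here Glut1Tg replicate 3 of mouse group 1 was above WT replicate 5 of mouse group 2. The fold change was 0.69 ± 0.15 (adjusted p = 0.0118, edgeR). Ndufab1 had 0.66 ± 0.20 (adjusted p = 0.0438) and Ndufb2, a membrane-arm subunit, 0.61 ± 0.16 (adjusted p = 0.0249) on the same log2 scale and test. For Ndufa9, Ndufab1 and Ndufb2 the highest library was Glut1Tg replicate 1, followed by WT replicate 2 for Ndufa9 and Ndufb2. In Ndufaf2 the log2 fold change was 1.06 ± 0.36, larger than in any of the 5, with an adjusted p of 0.0605 in edgeR.

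The calls depended on which libraries were present. Over the fits with 1 library left out, calls among all genes, in either direction, also ran from 668 to 4552. The share of all genes in each single fit is not given here, so the counts below are not a result about complex I alone. Without Glut1Tg replicate 1, 0 of the 44 genes were called higher, and without Glut1Tg replicate 3, 11 were. Without WT replicate 1 or without WT replicate 2, 2 were called, and without WT replicate 3, 1 was. Without WT replicate 4, Ndufa6 and Ndufb11 were called lower in mouse group 2. Over WT libraries alone, Ndufaf3 was the gene called. All 8 proliferation markers also had positive mouse group fold changes, 6 of them at an adjusted p under 0.05 (edgeR), with a median log2 fold change of 1.21, and Glut1Tg replicate 1 and WT replicate 2 were the highest in their sum. Their part in the result was not tested, and without both libraries the log2 fold changes were 0.94 for Ndufaf3, 0.53 for Ndufaf1, 0.52 for Ndufa9, 0.40 for Ndufab1 and 0.39 for Ndufb2, and 0.61 for Ndufaf2. Those of Ndufab1, Ndufb2 and Ndufaf2 were thereby smaller by over 1.5 times, and none of the 6 passed the test in that fit. Markers of other cell types ran the opposite way between mouse groups. None of the 8 mast cell and basophil markers had a positive mouse group fold change (median log2 fold change -1.59), and neither did any of 7 tested myeloid (-0.78), 3 tested B cell (-0.58) or 3 tested CD8 and NK cell markers (-0.32). None of these passed the test (edgeR), and their part in the result was not tested.

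In the other direction, 5 genes had every mouse group 2 library below every mouse group 1 library (11.4%, against 11.4% of all genes), and 2 had the opposite order (4.55%, against 10.5%). Those with mouse group 2 below included Ndufs3, Ndufb9, Ndufb11 and Ndufv3, of which Ndufb9 and Ndufv3 were named after their values were seen. Ndufb11, an X-linked membrane-arm subunit, had 117, 111, 129 and 109.7 CPM in mouse group 2 and 159, 187, 164, 139 and 137 CPM in mouse group 1, with a log2 fold change of -0.35 ± 0.12 (adjusted p = 0.0662, edgeR). It did not pass the test. Ndufv3, next to the flavin subunits, had -0.34 ± 0.15 and Ndufa6 had -0.53 ± 0.29, with adjusted p-values of 0.126 and 0.198 in edgeR. A difference in the genotype effect between mouse groups was called for 0 of all genes, with 5.30% at an unadjusted p under 0.05, and 0 complex I genes reached even that (edgeR interaction term). The smallest unadjusted p was 0.0797 for Ndufa6, and mouse group 2 held a single Glut1Tg library.

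**Figure D4:**
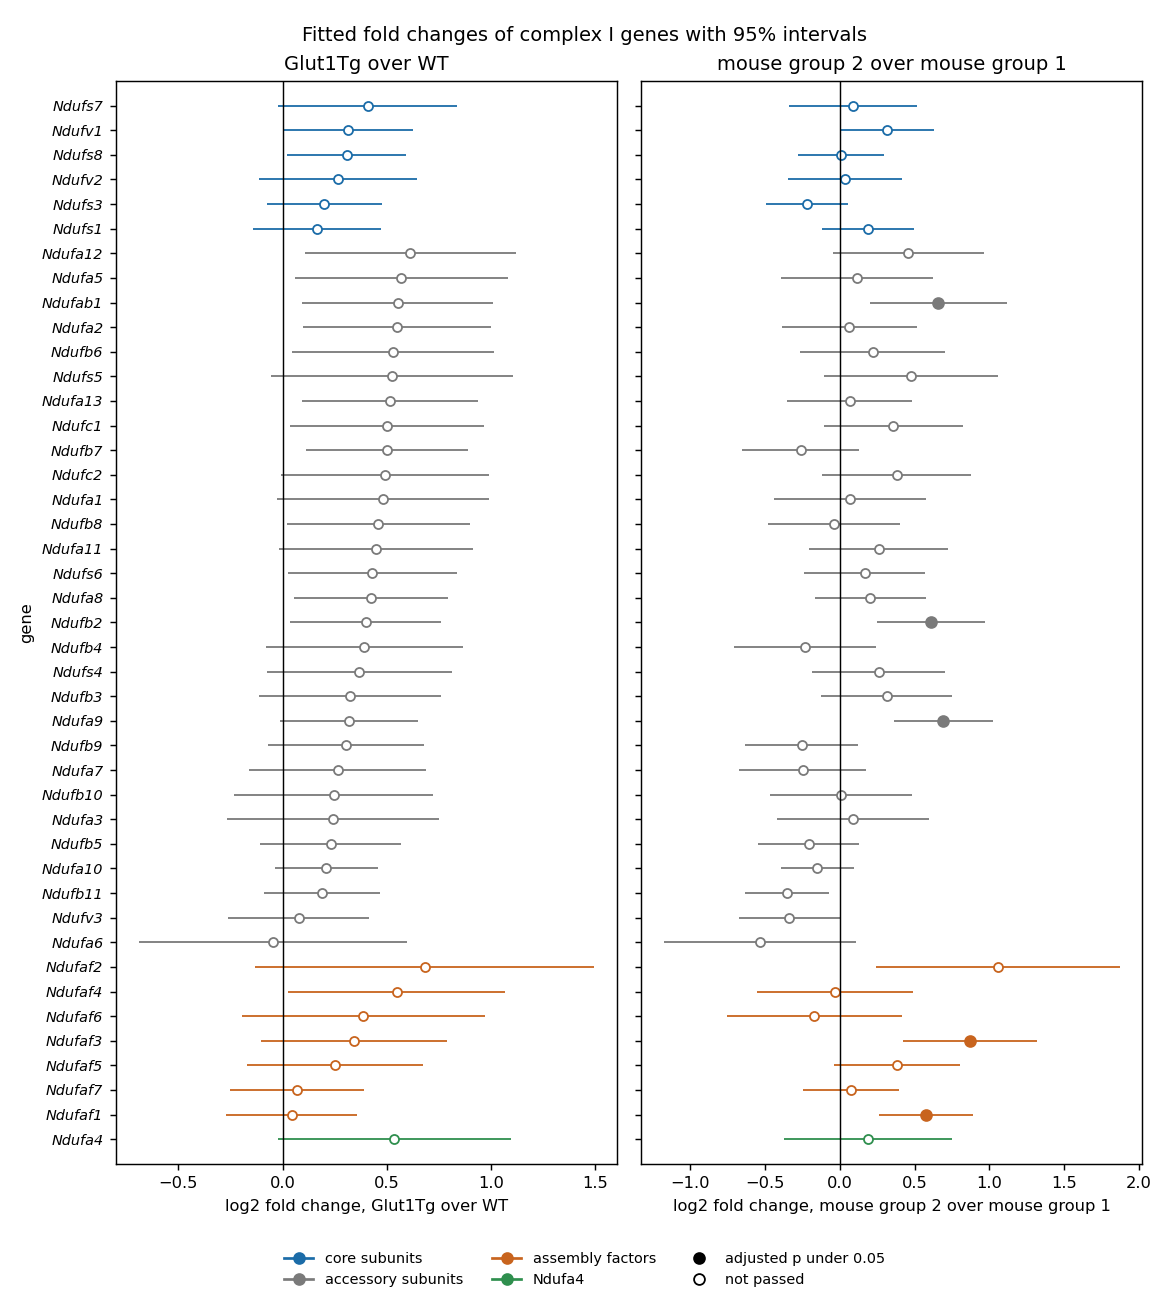
Fitted log2 fold changes with 95% intervals for tested complex I genes, Glut1Tg over WT on the left and mouse group 2 over mouse group 1 on the right, with filled points at an adjusted p under 0.05. On the left the points except Ndufa6 lie right of 0 and none is filled, and on the right points lie on both sides of 0 and 5 are filled.

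The 7 core subunits encoded in mitochondrial DNA complete the enzyme, and their values were set beside those of the nuclear genes. Their median genotype log2 fold change was 0.09, with 4 of 7 positive and 0 at an unadjusted p under 0.05. The summed CPM of the 7 was 6044, 5606, 8756 and 6812 in Glut1Tg replicates 1 to 4, against 6442, 6647, 7172, 5552 and 4042 in WT replicates 1 to 5. Glut1Tg replicate 3 was again highest, and WT replicate 5 was lowest. The genotype log2 fold change was 0.21 for mt-Nd1, 0.24 for mt-Nd2 and -0.32 for mt-Nd4l. In mouse group 2 all 7 had negative log2 fold changes with a median of -0.28, 2 of them at an unadjusted p under 0.05, against 18.4% of all genes lower by that rule, and 0 at an adjusted p under 0.05 (edgeR).

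Other complexes of the respiratory chain were measured from listed genes in the same fit. The median genotype log2 fold change was 0.12 over 8 genes of complex II, 0.41 over 9 of complex III, 0.43 over 10 of complex IV and 0.40 over 16 of ATP synthase. The complex II list held the subunits Sdha, Sdhb, Sdhc and Sdhd together with the assembly factors Sdhaf1, Sdhaf2, Sdhaf3 and Sdhaf4. Those of complexes III and IV held subunits only, so the median of complex II is not one of subunits alone. At an unadjusted p under 0.05, 1, 5, 5 and 6 of these were higher in Glut1Tg, against 4.50% of all genes. None was lower, against 1.50% of all genes, and none passed at an adjusted p (edgeR). The smallest unadjusted p-values belonged to Sdhd, Sdhc and Sdhb in complex II (log2 fold changes 0.39, 0.31 and 0.23), and to Uqcr11, Uqcrq and Cyc1 in complex III (0.70, 0.70 and 0.51). In complex IV they belonged to Cox6a1, Cox5b and Cox8a (0.81, 0.53 and 0.58), and in ATP synthase to Atp5d, Atp5g2 and Atp5g3 (0.52, 0.43 and 0.54). Glut1Tg replicates 1 and 3, with their high marker sums, enter these medians too, and the part of the marker cells was not tested. The difference between complex I and these complexes was not tested.

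The 11 assembly factors of complex I with other names had a median of 0.05, with 7 positive and 4 negative. Acad9, an acyl-CoA dehydrogenase relative that acts with Ndufaf1, had 51.0, 74.5, 60.9 and 78.8 CPM in Glut1Tg and 91.4, 55.5, 89.8, 67.3 and 72.5 CPM in WT libraries, with a log2 fold change of -0.35 ± 0.14 (unadjusted p = 0.0296, adjusted p = 0.681, edgeR). Acad9 was also lower in mouse group 2, at -0.48 ± 0.14 (adjusted p = 0.0321, edgeR). Tmem70, which acts in the assembly of complex I and ATP synthase, had 0.30 for genotype and was higher in mouse group 2, at 0.60 ± 0.14 (adjusted p = 0.0179, edgeR). Dmac1, listed in the table as Tmem261, had 0.51 ± 0.27 for genotype.

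None of the regulators of respiratory genes passed the test for genotype. Of 11 tested, 7 were positive and the median log2 fold change was 0.13. Pprc1, a coactivator that works with NRF1, had 84.4, 31.4, 90.0 and 32.8 CPM in Glut1Tg and 29.1, 47.9, 34.0, 24.1 and 24.7 CPM in WT libraries, with a log2 fold change of 0.98 ± 0.37 (unadjusted p = 0.0268, adjusted p = 0.681, edgeR). The high libraries of Pprc1 were Glut1Tg replicates 1 and 3. Myc had 243, 74.5, 412 and 107 CPM in Glut1Tg and 84.3, 172, 83.4, 116 and 243 CPM in WT libraries (0.95 ± 0.53), with Glut1Tg replicate 3 highest. Tfb1m, a mitochondrial ribosomal RNA methyltransferase, had 0.58 ± 0.28 for genotype, and its mouse group log2 fold change was 1.38 ± 0.28 (adjusted p = 0.00972, edgeR). In mouse group 2, 1 of the 11 was higher and 3 were lower at an adjusted p under 0.05 (edgeR), against 13.1% and 11.0% of all genes.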

How the data were processed

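Members and gene lists were chosen with earlier results of these data known. RNA was extracted with the RNeasy Plus Mini kit, and TruSeq Stranded mRNA libraries were sequenced as paired ends, per the labels' protocols. The authors used bcl2fastq, TopHat2, featureCounts and DESeq2 with build mm10, per the submitters' processing notes, and no versions or strand setting were found in them. The deposited file holds raw counts per gene, whole numbers that were not normalized, and a second deposited table, of log2 values, was not used. Of 28111 genes, 14817 passed edgeR's filterByExpr by genotype. CPM used TMM-scaled totals. Differences were tested with edgeR 4.0.16 in R 4.3.3 (quasi-likelihood, mouse group and genotype as terms) with Benjamini-Hochberg adjustment over all genes tested and a threshold of 0.05, and a second fit added the interaction. Values after ± are SE for log2 fold changes and SD for levels, and intervals are 95%. Single genes also had an exact permutation test. Alternatives were DESeq2 1.42.0, limma-voom 3.58.1, DESeq2 size factors, no filter, each library left out, the libraries apart on the first principal component left out, a replicate block, no mouse group term, each mouse group alone and WT alone. The genotype fit was also run on simulated counts with planted fold changes, and the share recovered is not given here. Lengths came from GENCODE annotation of GRCm38 and promoters from RefSeq GRCm38.p6. Named were core and Ndufaf genes, the Ndufa4 pair, accessory genes with the 6 smallest genotype p, the 3 highest levels, the 3 smallest mouse group p or a negative fold change, and up to 3 genes of each other list. Ndufa5, Ndufa7, Ndufb4, Ndufb6, Ndufb8, Ndufb9, Ndufb10, Ndufc1, Ndufs6 and Ndufv3 were named after their values were seen. Ndufb1 was not analysed here. The counts and medians cover all tested members, and one member is not reported here by itself.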

Additional observations from a re-analysis of the deposited data

Results flagged for a closer look

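In 6 of 88 groups of libraries (44 genes in each genotype), one library lay apart from the rest by Dixon's criterion, where chance alone gives about 1 in 20 groups. The count was near that rate, and the rate over all genes is not given here. The count is therefore not a result about complex I. Glut1Tg replicate 3 was the high library in 4 of them. Ndufb7 had 176 CPM in that library, against 105 to 109.6 CPM in the other Glut1Tg libraries. Ndufa13 had 189 CPM, against 116 to 125 CPM. Ndufb10, a membrane-arm subunit, had 125 CPM, against 72.4 to 74.9 CPM, and Ndufb4, in the same arm, had 45.5 CPM, against 23.3 to 26.4 CPM. This library also had the high myeloid and mast cell marker sums, whose part was not tested. WT replicate 2 was the high library in the other 2. Ndufa12 had 39.9 CPM there, against 23.6 to 27.3 CPM in the other WT libraries, and Ndufc1, a small membrane-arm subunit, had 23.5 CPM, against 14.5 to 15.3 CPM. The proliferation marker sum was high in the same library, and its part was not tested.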

How the results depend on the processing

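No complex I gene passed for genotype under any of the 18 alternatives. Leaving out 1 library at a time gave 1 to 2 genes called in all, 2 to 21 complex I genes higher at an unadjusted p under 0.05, and 40 to 44 positive. Median genotype log2 fold changes over these fits were 0.15 to 0.31 for core, 0.27 to 0.48 for accessory and 0.17 to 0.41 for assembly genes. For mouse group the same fits called 668 to 4552 genes, with 0 to 11 complex I genes higher and 0 to 2 lower, and medians of -0.010 to 0.14 for core, 0.021 to 0.25 for accessory and 0.29 to 0.46 for assembly genes. DESeq2 called 7 genes for genotype, and 1 complex I gene lower in mouse group 2. Without the filter 2 genes were called for genotype. Without Glut1Tg replicate 1 and WT replicate 2 together, 0 genes were called for genotype and 1 complex I gene was higher at an unadjusted p. In that fit 593 genes and 0 complex I genes were called for mouse group, with a core median of -0.046. Without the mouse group term 8 were higher at an unadjusted p and the assembly median was 0.10. Each mouse group alone called 0 genes, with 1 complex I gene higher at an unadjusted p. WT libraries alone called 642 genes for mouse group, 1 of them (higher) of complex I.

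Same-numbered libraries of replicates 1 to 4 had correlations of deviations from the genotype mean of -0.51, -0.59, 0.23 and -0.21. Those deviations still hold the mouse group difference, and of these pairs the replicate 3 libraries alone share a mouse group. The check therefore cannot decide whether the replicate numbers pair the libraries. With a replicate block added, 0 genes were called for either label, 5 complex I genes were higher in Glut1Tg at an unadjusted p, and mouse group medians were 0.21 for core and 0.38 for accessory genes. Slc2a1 lost its call with the block (adjusted p = 0.254, edgeR), without both libraries apart (0.124), and within mouse group 1 (0.496) and mouse group 2 (0.375), while its log2 fold change was 2.83, 2.87, 2.89 and 2.95 in these fits, against 2.92 in all libraries.

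Some genotype fold changes changed sign. Over the fits with 1 library left out, Ndufa6 ran -0.21 to 0.28, Ndufaf1 -0.021 to 0.081, Ndufaf7 -0.029 to 0.11, Ndufs1 -0.0047 to 0.20 and Ndufv3 -0.034 to 0.23 on the log2 scale. Without both libraries apart, Ndufa6 was 0.28, Ndufaf1 -0.0029, Ndufaf7 -0.029 and Ndufs1 -0.0046, and the mouse group value of Ndufa6 was 0.071. Without the mouse group term, Ndufa6 was 0.20, Ndufaf1 -0.16 and Ndufaf3 -0.0031. Within mouse group 1, Ndufa6 was 0.30 and Ndufaf7 -0.0038, and within mouse group 2, Ndufb11 was -0.024 and Ndufv3 -0.26. The cause of these changes was not tested. Mouse group 2 holds 1 Glut1Tg library, which limits the within-group and interaction fits, and the Ndufaf genes are among those with the fewest counts.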

Other observations

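The gene listed as 1810043H04Rik, which RefSeq names Ndufaf8, an assembly factor, fell outside the symbol rule. It had a genotype log2 fold change of 0.61 ± 0.27 (unadjusted p = 0.0472, adjusted p = 0.681, edgeR). Exons of 15 of the 45 complex I genes overlap a gene on the other strand. Exons of Ndufa4l2, with 13 counts in all, overlap Shmt2 on the other strand, which had 22152. For Ndufb2 the partner is Braf, whose mouse group log2 fold change was 0.25 (adjusted p = 0.397, edgeR).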
